A study of Arabidopsis thaliana with 30 samples.

Results

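The comparison described here is the difference between the bicarbonate responses of the triple and the double β-carbonic anhydrase (βCA) line of Arabidopsis thaliana, that is (triple, bicarbonate minus water) minus (double, bicarbonate minus water). Its members are 12 of the 30 RNA sequencing libraries of the series, chosen by genotype and treatment alone. Both lines were made in a PsbS-overexpressing background (oePsbS). In the paper's immunoblots, PsbS protein was much lower in both lines than in oePsbS, near the Col-0 level. The triple line (oePsbS, oeCA1, oeCA2) carries βCA1 and βCA2 in 1 construct driven by the ROLD and 35S promoters. The double line (oePsbS, oeCA1) carries βCA1 in another construct driven by the 35S promoter. Watering with 10 ml of either 3 mM bicarbonate (NaHCO3) or plain water began when plants were 2 weeks old. It was repeated every 2 days until rosettes were harvested, at an age of 4 weeks. The bicarbonate solution was brought to neutral pH with KOH, so its sodium and potassium cannot be told apart from bicarbonate here. All plants grew at 120 µmol of light per square metre and second, in 16 h days at 21 °C. The 4 groups of 3 libraries are triple with bicarbonate, triple with water, double with bicarbonate and double with water. For each construct 3 independent transformants with the highest transgene expression were selected in the study, and whether the 3 libraries of a group are separate transformants, pools or plants of 1 transformant is not stated in the sources used here. The p-values therefore measure the spread between these libraries. Any difference of promoter, of construct or of βCA1 level (lower in the triple line, as given below) cannot be told apart from the presence of βCA2.

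PsbS is the thylakoid protein that senses a low lumen pH and switches on the energy-dependent part of non-photochemical quenching, and plants that overexpress it dissipate more of the absorbed light as heat. Carbonic anhydrases interconvert carbon dioxide and bicarbonate; βCA1 is the abundant enzyme of the chloroplast stroma, and βCA2 is a cytosolic relative. Many genes that respond to wounding, touch, cold or pathogens within minutes encode ERF, WRKY and C2H2 zinc finger transcription factors, calcium sensors and CAF1 messenger RNA deadenylases, and their transcripts turn over rapidly.

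Expression is given as CPM (counts scaled to a common library size with TMM factors), and a response is the log2 ratio of bicarbonate over water within a line. The 12 libraries held 15605429 to 17995765 estimated reads (median 16743223.5). The βCA2 transcript AT5G14740.1 was at 452 to 549 TPM (abundance scaled for transcript length and library size) in all 6 triple libraries and at 0 TPM in all 6 double libraries, as in every other library of the series. βCA1 (AT3G01500) gave 3876, 3326 and 3802 CPM in the triple line with bicarbonate and 3594, 4050 and 3797 CPM with water, against 12890, 14690 and 2398 CPM in the double line with bicarbonate and 16710, 10890 and 16470 CPM with water. The library labelled double, bicarbonate, replicate 3 was thus the only one of the 6 double libraries without raised βCA1, and it lay below all 6 triple libraries. With bicarbonate, βCA1 in the triple libraries overlapped with the oePsbS libraries (3627, 4188 and 3950 CPM in the fit of all 30 libraries), whereas with water it was above all of them (2564, 2425 and 2418 CPM). PsbS (AT1G44575) gave 4586, 4286 and 4792 CPM with bicarbonate and 4974, 5563 and 5485 CPM with water in the triple line. Double line libraries gave 3310, 3328 and 3512 CPM with bicarbonate and 3861, 4063 and 3759 CPM with water. All triple libraries were above all double libraries for PsbS, and its difference of responses was −0.03 (SE 0.09, and 0.00 without double, bicarbonate, replicate 3). Double, bicarbonate, replicate 3 is kept in the values below, and the counts of calls, the list medians and the named genes that move by more than 1.5 times without it are given again without it.

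**Figure D1:**
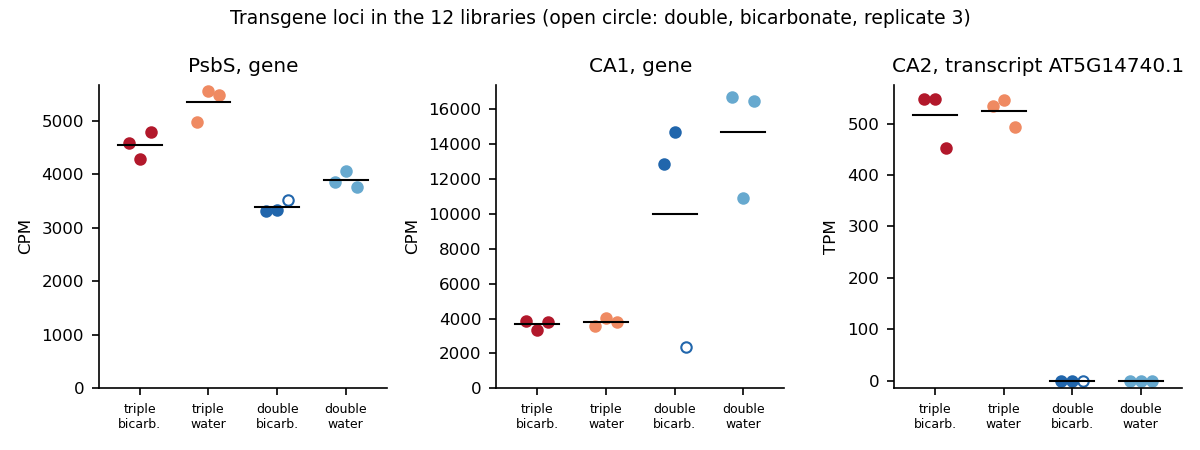
Levels of PsbS and βCA1 (CPM) and of the βCA2 transcript AT5G14740.1 (TPM) in each of the 12 libraries, grouped by line and treatment along the horizontal axis, where bars are means of 3 libraries. The open circle is double, bicarbonate, replicate 3, whose βCA1 level of 2398 CPM lies below all triple libraries and far below the other double libraries; AT5G14740.1 is at 0 TPM in all double libraries.

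The libraries carried the transcripts of leaf. Summed TPM of 7 mesophyll markers was 40745 to 43451 in triple with bicarbonate, 41477 to 44870 in triple with water, 37823 to 40561 in double with bicarbonate and 39744 to 41684 in double with water. The root markers PLT1, EXPA7, RHD6 and COBL9 were at 0 TPM in all 12 libraries, and the summed root list (11.9 to 15.5 TPM) was mostly SCR, which leaves express too. Summed TPM of 9 floral markers was 9.64 to 22.8 in triple with bicarbonate, 6.76 to 8.20 in triple with water, 7.83 to 18.6 in double with bicarbonate and 3.27 to 11.6 in double with water. Floral markers thus tended to be higher with bicarbonate in both lines, with LFY at 0 TPM in 4 and CAL in 4 libraries, and their part in the responses was not tested.

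No gene differed in its bicarbonate response between the lines at the test's threshold. Of 18577 genes tested with edgeR's quasi-likelihood test, a larger response in the triple line was called for 0 (0%) and a smaller one for 0 (0%), where a call needs a Benjamini-Hochberg adjusted p under 0.05 together with a log2 difference beyond 1, and the smallest adjusted p was 0.992. DESeq2 and limma on log2 TPM also called 0. At an unadjusted p under 0.05, 314 genes had a larger response in the triple line (1.69%) and 390 a smaller one (2.1%), of which 47 (0.253%) and 73 (0.393%) had a log2 difference beyond 1. With double, bicarbonate, replicate 3 left out, 528 genes had a larger and 428 a smaller response at that p, of which 138 and 88 were beyond 1, so the excess of smaller responses turned round. DESeq2 gave 570 genes at an unadjusted p under 0.05, limma on log2 TPM 721 and limma's voom with library weights 1187, against 704 in edgeR. With no true difference, a share of about 0.05 of all genes would be expected under that p. The median half-width of the 95% interval of a gene's log2 difference was 0.38, and for 14707 genes (79.2%) the whole interval lay between −1 and 1. For most genes these data thus bound the difference to within a 2-fold change either way, while the genes with the widest spread, among them the rapid stress genes below, are bounded much less tightly. Each difference fitted on all 12 libraries and quoted below has an adjusted p of 0.992 or higher, and those without double, bicarbonate, replicate 3 have one of 0.759 or higher.

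The 2 responses themselves were called in many genes and went the same way. In the triple line, 231 genes (1.24%) rose with bicarbonate by the same thresholds and 18 (0.0969%) fell, against 115 (0.619%) and 11 (0.0592%) in the double line. Of these, 89 genes were called higher in both lines, which is 38.5% of the triple line's and 77.4% of the double line's. All 142 genes called higher only in the triple line were also above 0 in the double line (median log2 0.92), and 25 of the 26 called higher only in the double line were above 0 in the triple line (median log2 0.91). A call in 1 line alone therefore does not show that the other line lacked the response. Among the 89 genes called higher in both lines, the median log2 response was 2.60 in the triple line and 1.85 in the double line, and 77 of the 89 had the larger value in the triple line. Over all genes, 49.1% had the larger value in the triple line.

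The double line's count rested on single libraries. Without double, bicarbonate, replicate 3, the double line had 13 genes called higher and 2 lower, the triple line 247 and 25, and the difference of responses still 0 and 0. Only 9 genes were then called higher in both lines, which is 3.64% of the triple line's and 69.2% of the double line's, and all 9 were among the 89. For the same 89 genes the median response without that library was 2.60 in the triple line and 1.46 in the double line, and 85 had the larger value in the triple line. In the lists below, the double line then had 1 C2H2 zinc finger gene, 2 CAF1 deadenylases and 1 senescence and starvation gene called higher, and 0 genes of each other list. Leaving out double, water, replicate 1, 2 or 3 left 10, 7 or 16 genes called higher in the double line, and leaving out triple, water, replicate 2 or triple, bicarbonate, replicate 2 left 120 or 134 in the triple line.

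A difference of responses is equal to the line difference with bicarbonate minus the line difference with water, so the same 12 libraries also show under which treatment the lines lay apart. For the 89 genes called higher in both lines, the median log2 difference of triple over double was 0.43 with bicarbonate and −0.36 with water, and the median difference of responses was 0.71. In 29 of them (32.6%) all 3 triple water libraries were below all 3 double water libraries, against 8.02% of all genes, and in 1 they were all above (7.92% of all genes). In none of the 89 did the lines separate fully with bicarbonate, where 5.54% of all genes were fully higher and 5.77% fully lower in the triple line. When double, bicarbonate, replicate 3 was left out, the 89 genes had medians of 0.90 with bicarbonate and −0.36 with water and a median difference of 1.28, and with bicarbonate 26 were fully higher (12.4% of all genes) and 2 fully lower (12% of all genes). The count of none thus held only with that library included, while most of the 89 still overlapped without it. Full separation is also easier with fewer libraries, as the larger shares of all genes show. The 47 genes with the larger triple response at an unadjusted p under 0.05 and a log2 difference above 1 had median line differences of 0.64 with bicarbonate and −0.84 with water, and the 73 with the smaller response had −0.69 and 0.83. These 2 sets were chosen by the difference itself, so their medians are a description. Many genes named below were also picked by a small p in the difference, so their separations are a description too.

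**Figure D2:**
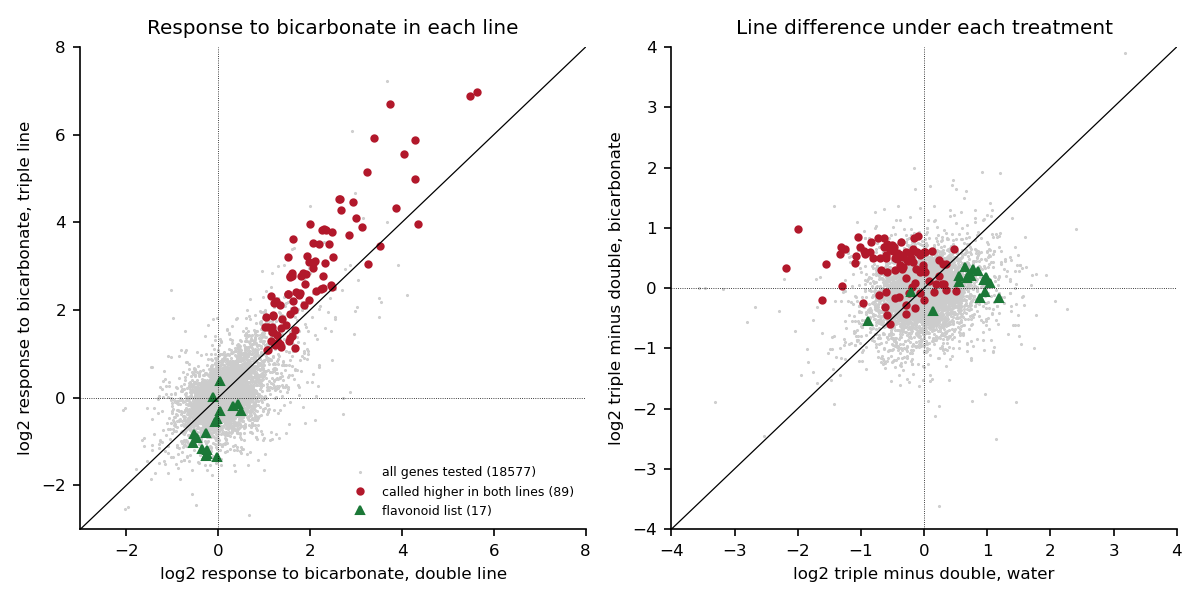
Left, log2 response to bicarbonate of the triple line (vertical) against that of the double line (horizontal), 1 point a gene; right, log2 triple over double with bicarbonate (vertical) against the same with water (horizontal). Most of the 89 genes called higher in both lines (red) lie above the diagonal on the left and to the left of 0 on the right, while most of the 17 flavonoid genes (green triangles) lie below the diagonal on the left and to the right of 0 on the right; 4 genes lie outside the left axes and 3 outside the right.

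Many ethylene response factors (ERFs) rose in both lines and had larger values of the response in the triple line. Of 18 ERFs tested, 11 were called higher in the triple line and 8 in the double line (1.24% and 0.619% of all genes), with median log2 responses of 2.91 and 1.84. The larger response was in the triple line for 15 (49.1% of all genes), with a median difference of 0.39, against −0.00 over all genes. In 7 of the 18, all triple water libraries were below all double water libraries (8.02% of all genes). ERF104, a factor phosphorylated by an immune kinase after flagellin, gave 14.7, 40.5 and 45.8 CPM with bicarbonate and 3.48, 2.39 and 2.37 CPM with water in the triple line. In the double line it gave 15.4, 18.01 and 29.2 CPM with bicarbonate and 6.34, 8.17 and 5.78 CPM with water. The bicarbonate libraries of the lines overlapped, whereas with water every triple library was below every double library. Its log2 response was 3.62 in the triple line (adjusted p = 0.000823 from edgeR) and 1.62 in the double line (adjusted p = 0.0378), a difference of 2.00 (SE 0.54, 95% interval 0.84 to 3.15).

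ERF5, a factor of defence and leaf growth, gave 9.93, 25.1 and 38.7 CPM with bicarbonate and 2.64, 2.22 and 2.19 CPM with water in the triple line. The double line had 7.55, 12.2 and 17.2 CPM with bicarbonate and 4.23, 3.997 and 3.89 CPM with water. Here too the lines were apart with water and overlapped with bicarbonate, and the difference was 1.78 (SE 0.60). Its close relative ERF6 gave a difference of 1.61 (SE 0.77) and ERF105, a factor of the cold response, 1.46 (SE 0.63), both with the triple water libraries entirely below the double. RRTF1, a redox-responsive ERF, rose in both lines but was spread too widely for its difference to be read: 6.88, 17.2 and 21.2 CPM in triple with bicarbonate and 0.193, 0 and 0.177 CPM with water, against 1.103, 7.54 and 43.7 and 0.249, 0.835 and 0.0590 CPM in the double line (difference 1.41, SE 2.77, and 3.40 without double, bicarbonate, replicate 3). DDF1, a factor of salt and cold tolerance, had 0 reads in all 3 triple water libraries and a mean of 3.44 CPM in triple with bicarbonate, which is at least 17.8-fold higher against a floor of 3 reads per library. Without double, bicarbonate, replicate 3, the median difference of the ERF list was 1.39, and 16 of the 18 members were above 0.

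C2H2 zinc finger repressors, which include factors of oxidative, salt and cold stress, mostly had the larger response in the triple line. Of 10 tested, 5 were called higher in the triple line and 4 in the double line (1.24% and 0.619% of all genes). The larger response was in the triple line for 7 (49.1% of all genes), with a median difference of 0.70 (1.18 without double, bicarbonate, replicate 3). In 3 of the 10, all triple water libraries were below all double water libraries (8.02% of all genes). ZAT12, a factor of the light and oxidative stress response, gave 5.62, 13.9 and 20.1 CPM with bicarbonate and 1.09, 0.568 and 0.887 CPM with water in the triple line. In the double line it gave 6.39, 8.21 and 15.5 CPM with bicarbonate and 2.49, 2.68 and 2.30 CPM with water. The lines overlapped with bicarbonate, and with water the highest triple library was under the lowest double one. The log2 response was 3.96 (adjusted p = 0.000856) in the triple and 2.00 (adjusted p = 0.0317) in the double line, from edgeR, with a difference of 1.96 (SE 0.67, 95% interval 0.51 to 3.40). ZAT10, the salt tolerance zinc finger, gave 24.7, 59.4 and 86.9 CPM with bicarbonate and 2.51, 1.99 and 2.90 CPM with water in the triple line. Its levels in the double line were 22.5, 29.6 and 63.4 CPM with bicarbonate and 7.09, 6.14 and 5.49 CPM with water. It was again lower in every triple water library, and its difference was 1.91 (SE 0.68). ZAT6, a factor of phosphate and stress responses, had a difference of 1.20 (SE 0.50), and AZF2, a repressor of abscisic acid and salt responses, one of 0.67 (SE 0.44, and 1.14 without double, bicarbonate, replicate 3).

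Genes that act on messenger RNA, calcium and the carbon to nitrogen balance were among those with the smallest unadjusted p. CAF1a, a messenger RNA deadenylase, gave 44.7, 106 and 142 CPM with bicarbonate and 7.92, 4.94 and 7.80 CPM with water in the triple line. Values in the double line were 45.9, 64.8 and 81.8 CPM with bicarbonate and 12.7, 16.2 and 11.2 CPM with water. Its response was 3.83 (adjusted p = 0.000823) in the triple and 2.27 (adjusted p = 0.0102) in the double line by edgeR, a difference of 1.56 (SE 0.50). The second deadenylase, CAF1b, rose in both lines too, with a difference of 0.74 (SE 0.55) that reached 1.29 without double, bicarbonate, replicate 3. CZF1, a CCCH zinc finger protein of salt stress, gave 37.1, 71.5 and 88.0 CPM and 14.9, 9.89 and 11.7 CPM in the triple line with bicarbonate and water, against 27.8, 30.3 and 53.0 and 16.4, 18.1 and 19.2 CPM in the double line. It rose in the triple line (2.43, adjusted p = 0.000856 from edgeR) and did not pass in the double line (1.04, adjusted p = 0.0949), with a difference of 1.39 (SE 0.41).

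PBP1, a calcium-binding partner of the PINOID kinase, gave 5.14, 9.90 and 16.3 CPM with bicarbonate and 1.42, 0.966 and 1.00 CPM with water in the triple line. Double line libraries gave 6.21, 5.78 and 7.49 CPM with bicarbonate and 2.42, 2.15 and 2.24 CPM with water. The triple water libraries were all under the double ones, and the difference was 1.70 (SE 0.50). CNI1, a ubiquitin ligase of the carbon and nitrogen response, had a difference of 1.17 (SE 0.37) and AT1G72910, a protein with a TIR domain, one of 1.30 (SE 0.35), both with the same separation of the water libraries. Of 14 touch and calcium genes tested, 10 were called higher in the triple and 7 in the double line (1.24% and 0.619% of all genes). The larger response was in the triple line for 10 (49.1% of all genes), with a median difference of 0.54 (0.93 without double, bicarbonate, replicate 3). In 3 of the 14, all triple water libraries were below all double water libraries (8.02% of all genes). The calmodulin-like TCH3 had a difference of 0.67 (SE 0.36) and CML23 of 0.83 (SE 0.44), and in both the lines overlapped under each treatment.

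**Figure D3:**
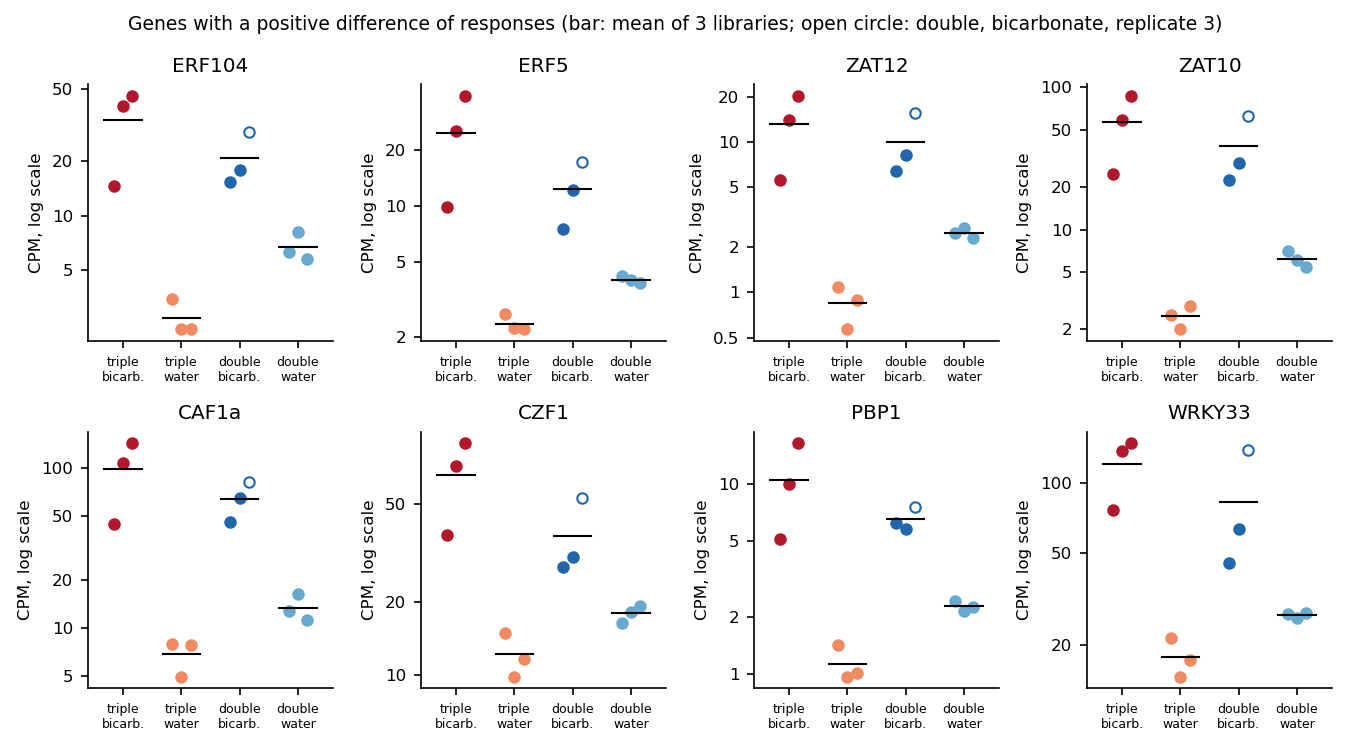
CPM on a log axis of 8 genes with a larger bicarbonate response in the triple line, by line and treatment; bars are means of 3 libraries and the open circle is double, bicarbonate, replicate 3. In each panel the 3 triple water libraries lie below the 3 double water libraries. The bicarbonate libraries of the lines overlap, in CZF1 and WRKY33 through the open circle alone. In ZAT12, for example, triple water reaches 1.09 CPM and double water starts at 2.30 CPM. The genes were picked among those with a positive difference, so these separations are a description. In WRKY40, TCH3 and CML23, not drawn, the water libraries of the lines overlapped.

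WRKY factors and genes of pattern-triggered immunity had smaller differences of the same sign. Of 21 WRKY genes tested, 7 were called higher in the triple and 3 in the double line (1.24% and 0.619% of all genes). The larger response was in the triple line for 17 (49.1% of all genes), with a median difference of 0.34. In 4 of the 21, all triple water libraries were below all double water libraries (8.02% of all genes). WRKY33, a regulator of camalexin synthesis, gave 76.8, 138 and 148 CPM with bicarbonate and 21.5, 14.7 and 17.3 CPM with water in the triple line. The double line had 45.3, 63.5 and 139 CPM with bicarbonate and 27.2, 26.2 and 27.5 CPM with water. Its difference was 1.15 (SE 0.47) and 1.75 without double, bicarbonate, replicate 3, the double library with the highest level. WRKY40, a repressor of defence genes, gave 27.9, 54.0 and 75.7 CPM with bicarbonate and 1.87, 0.284 and 1.24 CPM with water in the triple line. Its levels in the double line were 7.43, 20.4 and 79.0 CPM with bicarbonate and 1.86, 2.50 and 2.00 CPM with water. It rose in both lines by edgeR (adjusted p = 0.00261 in the triple and 0.0204 in the double), and its difference, 1.51, had an SE of 1.29 and reached 2.85 without that library. WRKY26, which acts in heat tolerance, had a difference of 0.84 (SE 0.37) and was lower in every triple than in every double water library.

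Of 24 genes of pattern-triggered immunity tested, 9 were called higher in the triple and 7 in the double line (1.24% and 0.619% of all genes). The larger response was in the triple line for 19 (49.1% of all genes), with a median difference of 0.32 (0.53 without double, bicarbonate, replicate 3). The triple water libraries were fully below the double ones in 7 of the 24 (8.02% of all genes) and fully above in 1 (7.92%). SYP122, a plasma membrane syntaxin, had a difference of 0.96 (SE 0.39), and FLS2, the flagellin receptor, one of 0.39 (SE 0.13). FLS2 gave 41.5, 42.1 and 35.0 CPM in triple with bicarbonate and 31.0, 28.3 and 32.1 CPM with water, against 39.8, 46.9 and 42.6 and 44.2, 41.1 and 45.4 CPM in the double line, so that only the triple water libraries stood apart. ACS6, an enzyme of ethylene synthesis, rose in both lines (difference 0.97, SE 0.53, and 1.46 without that library), and CBF2, a cold-induced activator, did too (difference 1.46, SE 0.60). The list of CBF activators and cold effectors that holds CBF2 had a median near 0, given below. BT2, a BTB and TAZ domain scaffold protein, rose by 1.65 in the triple (adjusted p = 0.0091) and 1.47 in the double line (adjusted p = 0.0378, edgeR), with a difference of 0.18 (SE 0.45, and 0.31 without that library) whose sign changed between settings. CYP707A3, which breaks down abscisic acid, rose in the triple line (3.15, adjusted p = 0.00531) and had a difference of 1.07 (SE 0.75, and 2.01 without that library).

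The other 4 genes picked for the smallest unadjusted p of this sign were at low levels. AT5G48320 (a C1 domain protein), bZIP6, AT5G66631 (a TPR-like protein) and AT2G36355 had differences of 1.36, 1.498, 1.35 and 2.03, with no library above 2.75 CPM. In none of these 4 was either response called, and the fitted responses were above 0 in the triple and below 0 in the double line. Among further named genes of this sign, AT5G17350 had a difference of 2.97, with 1.36 to 3.88 over the alternative settings.

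Genes of anthocyanin and flavonoid synthesis had the opposite sign. Of 17 tested, 15 had a more negative response in the triple line (median difference −0.52), against 50.9% of all genes, 7 at an unadjusted p under 0.05 (2.1% of all genes). With bicarbonate 3 were called lower in the triple line and 0 in the double line (0.0969% and 0.0592% of all genes). In 11 of the 17, all triple water libraries were above all double water libraries (7.92% of all genes). With bicarbonate 2 were fully above (5.54% of all genes) and 0 fully below (5.77%). FLS1, flavonol synthase, gave 30.1, 22.9 and 27.2 CPM with bicarbonate and 29.9, 37.9 and 31.4 CPM with water in the triple line. In the double line it gave 24.3, 22.6 and 26.3 CPM with bicarbonate and 13.5, 23.3 and 14.7 CPM with water. The triple water libraries were higher than all double water libraries and the bicarbonate libraries overlapped, and the difference was −0.81 (SE 0.24, 95% interval −1.33 to −0.30).

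UF3GT, a glycosyltransferase of anthocyanins, gave 3.47, 2.17 and 5.21 CPM with bicarbonate and 10.4, 7.96 and 9.52 CPM with water in the triple line. Values in the double line were 5.46, 3.47 and 3.14 CPM with bicarbonate and 2.74, 5.91 and 3.60 CPM with water. It fell in the triple line (−1.36, adjusted p = 0.03 from edgeR) and did not pass in the double line (−0.02, adjusted p = 0.99), with a difference of −1.34 (SE 0.44). The UDP-glycosyltransferase AT4G14090 fell in the triple line as well (−1.32, adjusted p = 0.0352), with a difference of −1.05 (SE 0.44). TT5, chalcone isomerase, gave 17.3, 17.4 and 18.3 CPM with bicarbonate and 21.1, 21.6 and 23.2 CPM with water in the triple line. Double line libraries gave 14.1, 15.5 and 16.6 CPM with bicarbonate and 12.9, 16.2 and 15.6 CPM with water. All its triple libraries were above all double ones under either treatment, the gap being larger with water, and the difference was −0.36 (SE 0.14). Chosen after their values were seen, TT4 (chalcone synthase), DFR, LDOX and TT19 (a glutathione transferase of anthocyanin transport) had differences of −0.51, −0.81, −0.96 and −1.03, each with all triple water libraries above all double ones.

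CHIL, RHM1 and ATOEP16-4 were on none of the lists and were chosen after their values were seen, for their small unadjusted p. CHIL, a chalcone isomerase-like protein that raises flavonoid output, gave 26.6, 24.3 and 27.1 CPM with bicarbonate and 38.8, 37.3 and 37.1 CPM with water in the triple line. In the double line it gave 22.6, 22.6 and 23.2 CPM with bicarbonate and 14.2, 24.0 and 19.2 CPM with water. Its difference was −0.79 (SE 0.19, unadjusted p = 0.000798 from edgeR), and the triple water libraries stood well above the rest. RHM1, an enzyme making the rhamnose that flavonols carry, had a difference of −0.39 (SE 0.09, unadjusted p = 0.000684 from edgeR), and it was higher in all triple than in all double water libraries. ATOEP16-4, a channel protein of the plastid envelope, had the smallest unadjusted p of all genes (0.000624, edgeR) with a positive difference of 0.84 (SE 0.19), from 10.1, 8.91 and 8.32 CPM with bicarbonate and 7.53, 6.08 and 5.62 CPM with water in the triple line against 7.96, 7.21 and 7.55 and 10.6, 8.89 and 9.08 CPM in the double line.

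**Figure D4:**
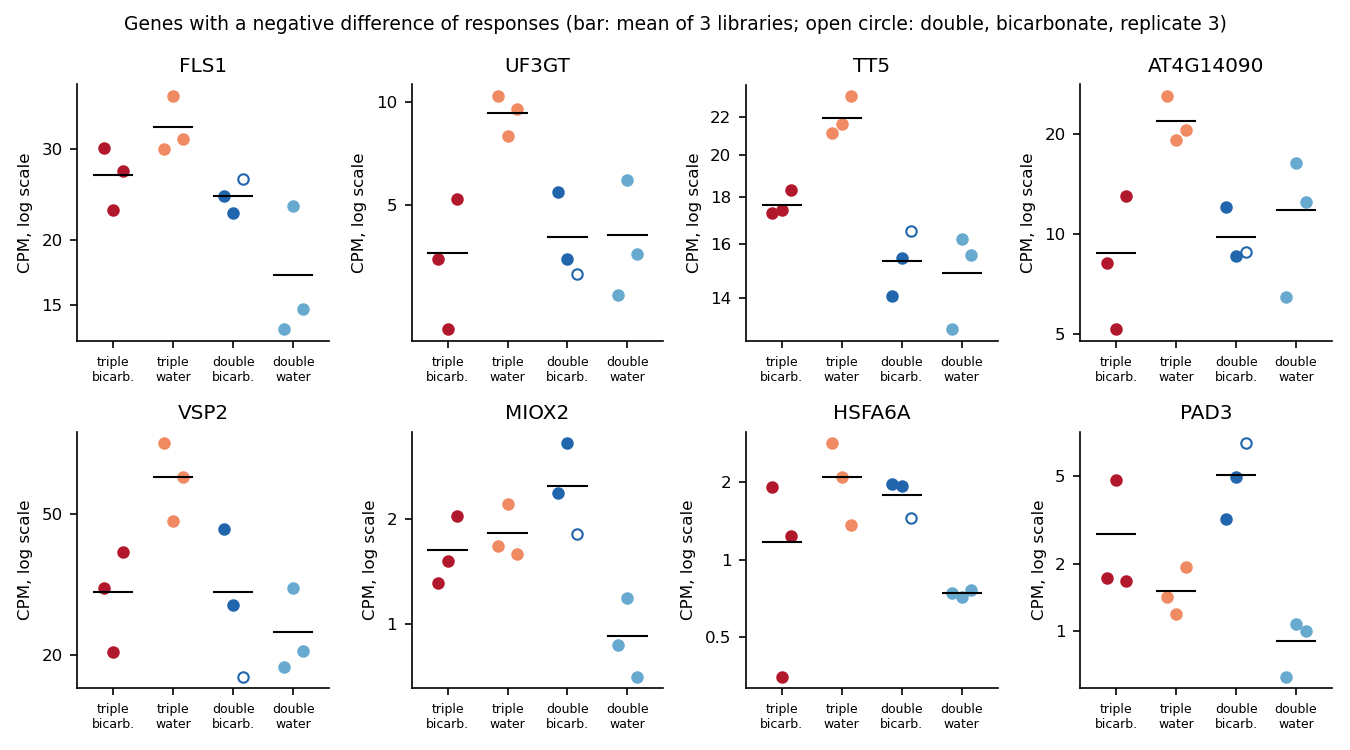
CPM on a log axis of 8 genes with a smaller or more negative bicarbonate response in the triple line, by line and treatment; bars are means of 3 libraries and the open circle is double, bicarbonate, replicate 3. In all 8 panels the 3 triple water libraries lie above the 3 double water libraries. In UF3GT triple water is at 7.96 CPM or more and double water at 5.91 CPM or less. The genes were picked among those with a negative difference, so these separations are a description. In ACA13 and RAB18, not drawn, the water libraries of the lines overlapped.

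Jasmonate genes leaned the same way. Of 26 tested, 22 had the more negative response in the triple line (median difference −0.23), against 50.9% of all genes. With bicarbonate 3 were called higher in the triple and 2 in the double line (1.24% and 0.619% of all genes). In 7 the triple water libraries were fully higher than the double water libraries (7.92% of all genes). Without double, bicarbonate, replicate 3 the median was −0.03 and 11 of the 26 were above 0, so that this lean rested on that library. VSP2, a vegetative storage protein induced by jasmonate, gave 31.0, 20.4 and 39.0 CPM with bicarbonate and 78.8, 47.7 and 63.5 CPM with water in the triple line. The double line had 45.4, 27.6 and 17.4 CPM with bicarbonate and 18.5, 30.9 and 20.5 CPM with water. Every triple water library was above every other library of the 4 groups, and the difference was −1.44 (SE 0.44, −1.72 without that library). Its neighbour in sequence and function VSP1 had a difference of −1.04 (SE 0.54), and reads may be shared between the 2. JAR1, which forms the active hormone, differed by 0.18 (SE 0.09).

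Some genes had the larger fitted response in the double line. PAD3, the last enzyme of camalexin synthesis, gave 1.74, 4.81 and 1.68 CPM with bicarbonate and 1.42, 1.19 and 1.95 CPM with water in the triple line. Its levels in the double line were 3.19, 4.96 and 7.01 CPM with bicarbonate and 0.622, 1.07 and 1.00 CPM with water. It rose in the double line (2.48, adjusted p = 0.017 from edgeR) and did not pass in the triple (0.85, adjusted p = 0.405), and the difference, −1.62 (SE 0.61), did not pass either. ACA13, a calcium pump, gave 2.57, 3.93 and 3.10 CPM with bicarbonate and 4.06, 1.76 and 3.31 CPM with water in the triple line. Values in the double line were 7.55, 7.10 and 5.32 CPM with bicarbonate and 2.98, 3.16 and 2.95 CPM with water. Here it was the double bicarbonate libraries that stood above all others, and the difference was −1.05 (SE 0.37).

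MIOX2, an inositol oxygenase, gave 1.32, 1.52 and 2.05 CPM with bicarbonate and 1.67, 2.22 and 1.60 CPM with water in the triple line. Double line libraries gave 2.38, 3.30 and 1.81 CPM with bicarbonate and 0.871, 1.19 and 0.708 CPM with water. The double water libraries were the low ones, and the difference was −1.60 (SE 0.43, 95% interval −2.53 to −0.68). MYB86, a MYB factor, and the receptor-like protein RLP28 rose in the double line by 1.41 and 2.86 (adjusted p = 0.0232 and 0.0386, edgeR) and gave 0.23 and 0.12 in the triple line, though RLP28 reached no more than 1.34 CPM in any library. ERD5, proline dehydrogenase, chosen after its values were seen, gave 19.4, 27.5 and 19.99 CPM with bicarbonate and 16.1, 18.8 and 13.4 CPM with water in the triple line, against 23.2, 27.7 and 25.9 and 10.1, 9.72 and 10.6 CPM in the double line (difference −0.87, SE 0.20). It rose in the double line (1.33, adjusted p = 0.00148) and did not pass in the triple (0.47, adjusted p = 0.114), by edgeR.

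Of the other genes with a negative difference named by the rule, HSFA6A, a heat shock factor, gave 1.91, 0.352 and 1.24 CPM with bicarbonate and 2.83, 2.103 and 1.36 CPM with water in the triple line, against 1.98, 1.93 and 1.45 and 0.746, 0.716 and 0.767 CPM in the double line (difference −2.096, SE 0.63). FUS3, a regulator of seed maturation, and the uncharacterized AT2G01913 had differences of −1.77 and −1.72, at levels of no more than 1.42 CPM in any library. The ankyrin repeat protein AT5G15500 and the glycine-rich protein AT4G29020 had differences of −1.17 (SE 0.35) and −1.01 (SE 0.33). In all 5 the triple water libraries were fully above the double water libraries. The dehydrin RAB18, a marker of abscisic acid, had a difference of −1.20 (SE 0.53) with overlapping libraries throughout.

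Light-harvesting genes, which are among the most abundant transcripts of the leaf, showed small differences of 1 sign. Of 20 tested, 19 had the larger value in the triple line (49.1% of all genes), with a median difference of 0.15. At an unadjusted p under 0.05 there were 3 (1.69% of all genes), and 6 were fully higher in triple than in double bicarbonate libraries (5.54%). After omission of double, bicarbonate, replicate 3, all 20 had the larger value (median 0.21). Of these, 13 were at an unadjusted p under 0.05 (528 of all 18726 genes then tested), and 18 were fully higher with bicarbonate (12.4% of all genes). LHCB1.4 gave 5195, 5865 and 5481 CPM with bicarbonate and 5073, 4507 and 4889 CPM with water in the triple line, against 4161, 4554 and 5818 and 5684, 5328 and 5499 CPM in the double line, a difference of 0.38 (SE 0.14). LHCB4.2 and LHCA2 had differences of 0.23 (SE 0.09) and 0.21 (SE 0.09). The LHCB1 genes are near-identical copies, so their division of reads is uncertain, and none of the 20 was called in either response.

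Among 14 genes of photoprotection and cyclic electron flow, 11 had the larger value in the triple line (median 0.09), against 49.1% of all genes. ELIP1, an early light-induced protein, gave 7.78, 7.15 and 9.31 CPM with bicarbonate and 13.3, 15.1 and 15.7 CPM with water in the triple line, against 11.0, 6.88 and 7.31 and 6.84, 10.5 and 11.4 CPM in the double line (difference −0.67, SE 0.28). VDE, violaxanthin de-epoxidase, which makes the zeaxanthin used in quenching, gave 87.6, 87.6 and 84.1 CPM with bicarbonate and 114, 104 and 93.9 CPM with water in the triple line. The double line had 76.7, 82.1 and 81.6 CPM with bicarbonate and 113, 108 and 112 CPM with water. Its response was −0.27 in the triple and −0.47 in the double line, and the difference 0.20 (SE 0.10). Of the carbonic anhydrases, βCA1 had a difference of 0.50 (SE 0.58) that was 0.04 without double, bicarbonate, replicate 3, βCA2 one of 0.16 (SE 0.12), βCA4 of 0.14 (SE 0.10) and βCA5 of −0.15 (SE 0.14, and −0.07 without it). The reference gene PP2AA3 had a difference of −0.10 (SE 0.11, and −0.06 without that library).

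**Figure D5:**
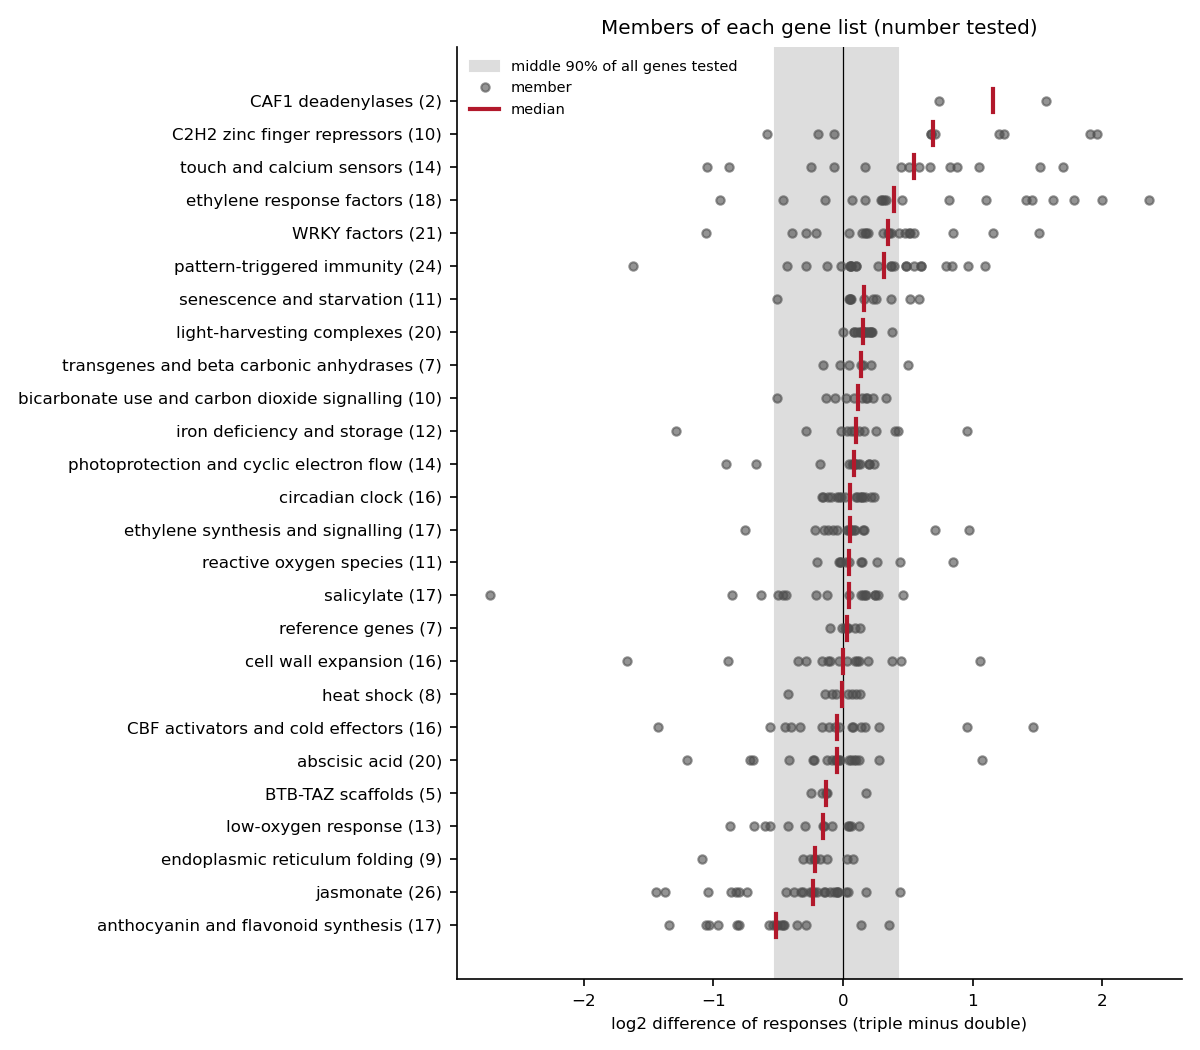
Log2 difference of responses (triple minus double, horizontal) of each tested member of 26 gene lists, with the number tested in brackets; red ticks are list medians and the grey band holds the middle 90% of all genes (−0.52 to 0.43). Medians run from 1.15 for CAF1 deadenylases to −0.52 for anthocyanin and flavonoid synthesis, and single members of many lists lie outside the band on either side.

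Lists with medians near 0 included clock, heat shock, some hormonal and housekeeping functions. The median difference was 0.06 for 16 clock genes, −0.01 for 8 heat shock genes, −0.05 for 20 abscisic acid genes, 0.05 for 17 salicylate genes, 0.12 for 10 genes of bicarbonate use and carbon dioxide signalling and 0.03 for 7 reference genes. Without double, bicarbonate, replicate 3 these medians were 0.03, −0.20, −0.03, −0.01, 0.11 and 0.06 in the same order. The 16 CBF activators and cold effectors had a median of −0.05 with 7 above 0, against 49.1% of all genes (−0.0016 and 8 without that library). The low-oxygen list of 13 genes had a median of −0.16 with 4 above 0 (−0.05 and 5 without that library), and 0 were called in either response. Endoplasmic reticulum folding genes had a median of −0.21, with 2 of 9 above 0 and CNX1, a calnexin, at −0.31 (SE 0.16). Of 11 senescence and starvation genes 10 were above 0 (49.1% of all genes). Their median of 0.17 was 0.0020 without triple, bicarbonate, replicate 1 and 0.34 without triple, water, replicate 1. In the triple line 3 were called higher and in the double line 2 (1.24% and 0.619% of all genes). SEN1, induced by darkness and starvation, gave 0.59 (SE 0.40).

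Few genes fell with bicarbonate. In both lines 5 were called lower, namely LTP3, AT2G41800, AT4G34950, AT5G47330 and PELPK1, and all 13 called lower only in the triple line and all 6 called lower only in the double line were below 0 in the other line as well. LTP3, a lipid transfer protein, gave 66.4, 33.2 and 62.9 CPM with bicarbonate and 158, 180.5 and 192 CPM with water in the triple line, against 73.6, 83.3 and 43.6 and 223, 166 and 129.9 CPM in the double line, with responses of −1.71 and −1.37 (adjusted p = 0.00284 and 0.0204, edgeR). AT1G56300, a DnaJ domain protein, gave 8.85, 8.85 and 7.51 CPM with bicarbonate and 17.8, 13.6 and 13.2 CPM with water in the triple line. Its levels in the double line were 8.42, 7.10 and 6.77 CPM with bicarbonate and 18.3, 17.9 and 22.5 CPM with water. It was called lower in the double line (−1.40, adjusted p = 0.00148 from edgeR) and stayed within the log2 limit of 1 in the triple (−0.82, adjusted p = 0.00654), and the difference was 0.58 (SE 0.20). COR15A, a cold-induced chloroplast protein, fell in the triple line (−1.102, adjusted p = 0.00296, edgeR) and gave −0.70 (adjusted p = 0.0583) in the double line, a difference of −0.40 (SE 0.24).

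The lines themselves were also set against each other under each treatment, a comparison added after the data were seen. The triple line had 0 genes called higher (0%) and 1 called lower (0.00538%) with bicarbonate, and likewise 0 (0%) and 1 (0.00538%) with water. At an unadjusted p under 0.05 with a log2 ratio beyond 1, 22 genes were higher (0.118%) and 83 lower (0.447%) with bicarbonate, and 52 higher (0.28%) and 58 lower (0.312%) with water. In the fit that omitted double, bicarbonate, replicate 3, 105 were higher and 133 lower with bicarbonate. DESeq2 called 0 genes higher with bicarbonate and 1 with water. The gene called lower was CRT3 under both treatments, which the naming rule did not reach. CRT3, a calreticulin that folds receptors in the endoplasmic reticulum, gave 115, 159.5 and 74.1 CPM with bicarbonate and 104, 84.8 and 91.6 CPM with water in the triple line. Values in the double line were 560.1, 679 and 678 CPM with bicarbonate and 616, 506 and 499 CPM with water. Every triple library was well below every double library, with log2 ratios of triple over double of −2.46 with bicarbonate (adjusted p = 0.000132 from edgeR) and −2.53 with water (adjusted p = 9.6e-05), and its bicarbonate responses differed by 0.08 (SE 0.27, and 0.12 without double, bicarbonate, replicate 3). Without double, bicarbonate, replicate 3, βCA1 was also called lower in the triple line under both treatments, and HSP70, a cytosolic chaperone, with bicarbonate.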

How the data were processed

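Per the labels, reads were assigned to TAIR10 transcripts by Salmon; its version and the filtering of reads are not given in the sources used here. Each deposited file holds 48268 transcripts of 27588 genes with the authors' estimated counts (reads assigned by Salmon, not normalized) and, as deposited, TPM values scaled within each library. For each gene, the deposited estimated counts of its transcripts were added up and the sum rounded. Libraries of the triple and double lines (12, 3 a group) were fitted together in edgeR 4.0.16 (R 4.3.3) with TMM scaling and filterByExpr (minimum count 10, minimum total 15), which kept 18577 genes, and contrasts were tested by the quasi-likelihood F test. A call needed both a log2 change beyond 1 and a p-value under 0.05 after Benjamini-Hochberg adjustment. With 8 residual degrees of freedom, the common coefficient of biological variation was 0.111.

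The 26 gene lists and 6 marker lists (422 genes) and the genes on them were chosen with earlier results of these data known, so no list is independent support. Named genes were those called in the difference or, below 10 in a direction, those of smallest unadjusted p with a log2 difference beyond 1, the transgenes and carbonic anhydrases, genes named by the study, up to 4 members of each list by unadjusted p, the 5 largest and 5 smallest called responses of each line, and PP2AA3. Not all are printed.

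Alternatives were DESeq2 1.42.0, RLE size factors, no count filter, a replicate block, all 30 libraries, an adjusted p alone, limma 3.58.1 on log2 TPM with a pseudocount of 1 or 0.1, length-scaled counts, organelle genes left out, robust dispersion, voom with library weights, and fits without 1 library at a time. The contrasts of the lines under 1 treatment and 10 further genes were added after the data were seen. No 2 replicates agreed within sampling noise (chi-square per gene 6.22 to 18.7 over 12 pairs). Gene names came from a TAIR10.1 annotation, matched by locus for 27390 genes, so no coordinates or sequences are given. The edgeR procedure for the difference of responses was tested on simulated data.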

Additional observations from a re-analysis of the deposited data

How the results depend on the processing

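The difference of responses had 0 genes called higher under all 24 alternatives and 0 lower under 23. The exception was AT1G38065, with a log2 difference of −8.93 without double, water, replicate 2 (adjusted p = 0.0488 from edgeR), where it had 0, 8.65 and 0 CPM in the double water libraries. Its log2 difference ran from −8.93 to 0.26 over left-out libraries. The lowest adjusted p of the difference was 0.182 or more in the other alternatives.

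In the triple line, 231 genes higher became 380 with an adjusted p alone, 152 with robust dispersion and 120 to 272 with a library left out; 18 lower became 31 with DESeq2, 29 with no count filter, 9 with all 30 libraries, 117 with an adjusted p alone, 8 and 10 with log2 TPM at pseudocounts of 1 and 0.1, and 4 to 25 with a library left out. In the double line, 115 higher became 174 with DESeq2, 68 with log2 TPM at a pseudocount of 1, 39 with robust dispersion, 49 with voom and 7 to 144 with a library left out; 11 lower became 119 with an adjusted p alone, 4 and 5 with log2 TPM at pseudocounts of 1 and 0.1, 5 with robust dispersion and 2 to 14 with a library left out. The triple line's lower calls were 7, 9 and 4 without triple, water, replicate 1, triple, water, replicate 3 and triple, bicarbonate, replicate 2. The double line's lower calls were 5, 2, 7 and 2 without double, water, replicate 1, 2 and 3 and double, bicarbonate, replicate 3.

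Between the lines with water, DESeq2 called 1 higher (VSP2) and 2 lower, an adjusted p alone called 2 higher (CHIL and PsbS), all 30 libraries 2 lower, and a left-out library 0 to 5 higher and 1 to 6 lower, the most without triple, water, replicate 1 (5 and 6) and double, water, replicate 2 (5 higher). With bicarbonate, an adjusted p alone called 1 higher (βCA2), DESeq2 2 lower, and a left-out library 0 higher and 1 to 3 lower. The cause of these shifts was not tested.

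Of 94 genes, 4 changed the sign of their difference in 14 of 2254 values. BT2 gave −0.0097 with log2 TPM at a pseudocount of 0.1, −0.21 with voom and −0.40 to 0.51 over left-out libraries. PsbS ran from −0.075 to 0.016 and CRT3 from −0.22 to 0.32 over left-out libraries, and CRT3 gave −0.013 and −0.011 with log2 TPM at pseudocounts of 1 and 0.1.

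List medians also moved over 16 alternatives, most of them left-out libraries. Without triple, water, replicate 2 the WRKY median was 0.195, without double, water, replicate 2 that of the C2H2 zinc fingers 0.43, without triple, bicarbonate, replicate 3 that of touch and calcium genes 0.33, and without triple, bicarbonate, replicate 2 that of salicylate genes −0.30 and of photoprotection genes 0.15. Without double, bicarbonate, replicate 2 the jasmonate median was −0.40 and that of endoplasmic reticulum folding −0.10, and without double, water, replicate 3 the low-oxygen median was −0.47. Clock genes ran from 0.0039 to 0.064, heat shock genes from −0.20 to 0.09, abscisic acid genes from −0.10 to 0.02, genes of bicarbonate use from −0.03 to 0.17 and reference genes from −0.06 to 0.08. The medians of flavonoid (−0.73 to −0.35), light-harvesting (0.12 to 0.21) and CAF1 genes (0.86 to 1.53) stayed within 1.5 times.

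The replicate numbers were not treated as pairs, since no source used here states that they pair samples. Of 18 correlations of same-numbered libraries, 5 exceeded 0.1, and they ran from −0.11 to 0.21. Between triple and double with bicarbonate they were 0.20, 0.07 and 0.21 for replicates 1, 2 and 3. With the replicate block, the triple line had 238 and the double line 134 genes called higher, and the difference of responses 0 and 0. With no count filter, 97 and 152 genes were past the unadjusted rule in the difference, against 47 and 73, and with log2 TPM at a pseudocount of 1, 22 and 23. A left-out library moved these to 38 to 138 and 70 to 131. At 3 libraries a group, log2 differences under about the 95% half-width of 0.38 were not detectable for the median gene even before adjustment. A call needed far more, an adjusted p under 0.05 and a log2 difference beyond 1. ERF104, at 2.00 (SE 0.54), still had an adjusted p of 0.992 from edgeR.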

Other observations

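The levels of the genes discussed above in the other 3 genotypes, which enter no comparison here, show where the 2 lines lay. The values are CPM from the fit of all 30 libraries. ZAT12 averaged 13.3 CPM in triple with bicarbonate and 10.1 CPM in double with bicarbonate, against 1.21 CPM in oePsbS, 2.79 CPM in npq4-1 and 1.53 CPM in Col-0 with bicarbonate. With water it averaged 0.854 CPM in the triple and 2.50 CPM in the double line, against 1.37 CPM in oePsbS, 1.63 CPM in npq4-1 and 1.72 CPM in Col-0. The triple water libraries overlapped with those of oePsbS (from 0.571 CPM upwards, against 1.06 to 1.82 CPM), and all 3 double water libraries (2.31 to 2.70 CPM) were above all libraries of the other genotypes with water. ZAT10 too had its lowest mean in the triple and its highest in the double line with water, at 2.48 CPM in the triple and 6.27 CPM in the double line, with 4.55 CPM in oePsbS, 3.68 CPM in npq4-1 and 3.80 CPM in Col-0. CAF1a with water averaged 6.92 CPM in the triple and 13.4 CPM in the double line, against 12.3 CPM in oePsbS and 7.17 CPM in Col-0. FLS1 with water averaged 33.2 CPM in the triple and 17.2 CPM in the double line, against 20.5 CPM in oePsbS, 14.5 CPM in npq4-1 and 27.8 CPM in Col-0, whose 3 libraries held 23.4, 21.0 and 38.9 CPM. TT4 with water averaged 413 CPM in the triple and 258 CPM in the double line, against 169 CPM in oePsbS and 355 CPM in Col-0. Several of these genes were also spread among the bicarbonate libraries of a genotype: replicate 1 of Col-0 had 25.8 CPM of CAF1a against 7.70 and 6.13 CPM in its other 2 libraries, and replicate 1 of npq4-1 had 40.6 against 13.7 and 7.55 CPM. No test was run on these values.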
